A study of Mus musculus with 12 samples.

Results

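The ASC by arsenic interaction asks whether the response of TC2Ras tumors to inorganic arsenic (iAs) differed between tumors implanted with and without adipose-derived stromal cells (ASC). It is the iAs effect with ASC, ASC300 minus ASC, less the iAs effect without ASC, A300 minus Control1, on a log2 scale. A positive value means that iAs moved a gene upward more, or downward less, in the tumors with ASC. Every gene that passed a filter on low counts was included, which left 20818 of the 55401 genes in the table of counts, measured in all 12 tumors.

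TC2Ras is a mouse prostate cancer cell line with oncogenic Ras signaling. Mice received 125000 cells under the skin of both flanks and the tumors were taken for poly(A) RNA sequencing on day 21, with the left and right flank of a mouse combined. In Control1 the cancer cells were implanted alone and the drinking water held 0 ppb iAs. In A300 they were implanted alone and the water held 300 ppb iAs. In ASC they were mixed with 1% ASC-GFP cells at 0 ppb iAs, and in ASC300 with 1% ASC-GFP cells at 300 ppb iAs. Each group had 3 tumors. Before implantation all mice ate AIN-76A chow low in arsenic and drank Milli-Q water, and iAs was given only afterward. The ASC-GFP cells were primary cells of male GFP-transgenic mice. The labels name adipose-derived stromal cells as the cell type, while the protocols describe whole tumors. Stromal markers such as collagens were present in every tumor, with or without ASC (summed level of 16 fibroblast and stromal genes 7257 to 12500 CPM, counts scaled by the TMM-normalized library size).

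ASC are progenitor cells of fat tissue that secrete growth factors and cytokines and can draw immune cells into a tumor. Inorganic arsenic binds thiol groups of proteins, induces oxidative stress and is known to alter immune and stress signaling. With both factors in a factorial design, an interaction separates a response that depends on the other factor from 2 responses that add up, and it carries the error of all 4 groups. It is therefore less precise than either of its components.

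Total counts lay between 39157647 and 55168642 per tumor, and 1 transcript took 3.23% to 11.4% of them. Control1 replicate 1 stood apart from the other tumors, at 102 on the first principal component of log2 CPM against -64.9 to 22.5 for the rest. Its B cell markers summed to 352 CPM, against 13.8 to 44.5 CPM in the other 11 tumors. Markers of skeletal muscle summed to 2359 CPM in A300 replicate 1 and 2437 CPM in Control1 replicate 2, against 54.5 to 533 CPM elsewhere. Adipocyte markers were highest in ASC replicate 2, at 2704 CPM. List medians that turned or moved strongly without 1 of these tumors are given both ways.

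No gene passed the test of the interaction. A call required at least 1.5-fold and, after Benjamini-Hochberg adjustment, a p-value below 0.05 in edgeR. By its quasi-likelihood F test 0 genes met this in the positive and 0 in the negative direction (0% of the genes tested). The smallest adjusted p-value was 0.309. At an unadjusted p-value under 0.05 there were 1473 genes with a positive interaction (7.08%) and 1363 with a negative one (6.55%), which is 13.6% of the genes. limma voom with sample weights called 0 genes in either direction, with a smallest adjusted p-value of 0.183, whereas DESeq2's Wald test called 29 positive (0.0858%) and 145 negative genes (0.429%) of 33784 tested. Shares of DESeq2 calls here and below are over all genes it tested. For the interaction 17193 of the 33784 had no adjusted p-value, so the shares among genes that could be called were higher. All 29 positive and 141 of the 145 negative DESeq2 calls had an unadjusted p-value under 0.05 in edgeR.

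The components differed in the number of calls. Without ASC, iAs raised 146 genes (0.701%) and lowered 74 (0.355%) by edgeR, 1.06% in all. With ASC, 0 genes passed in either direction, while 307 higher (1.47%) and 362 lower genes (1.74%), 3.21% in all, had an unadjusted p-value under 0.05 and DESeq2 called 11 (0.0326%). This difference in counts is not itself a test of the interaction, which no gene passed. The 220 calls without ASC also varied with the setting, from 0 after correction for transcript GC content to 816 with DESeq2 (2.42%).

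The precision of the interaction depended on how strongly a gene was expressed. Over all genes its standard error had a median of 0.33 on the log2 scale, and the 95% interval reached a median of 0.71 to either side. For 9868 genes (47.4%) the interval lay within 1 log2 unit of 0, so that a larger interaction was outside the interval for these. In the 5205 genes with the highest mean level the median standard error was 0.14 and 94.5% of intervals lay within 1 log2 unit. In the 5205 genes with the lowest level the median standard error was 1.35 and only 0.0384% did, so that an interaction of several fold was not detectable there at this depth and number of tumors.

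Across all genes the estimated iAs effects with and without ASC were only weakly correlated. They share no tumor, and over the 20818 genes Pearson's r was 0.0854 and Spearman's rho 0.0487, as a description across genes, which are not independent replicates. The sign was shared by 52.4% of genes. Each effect had a median standard error of 0.23 log2 units, so these values do not show that the responses were unrelated. The iAs effect was larger in size without ASC in 67.3% of genes, with a median size of 0.29 log2 units against 0.14 with ASC. Among the 5205 genes with the highest level, where the standard error was smallest, it was larger without ASC in 79%.

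**Figure D1:**
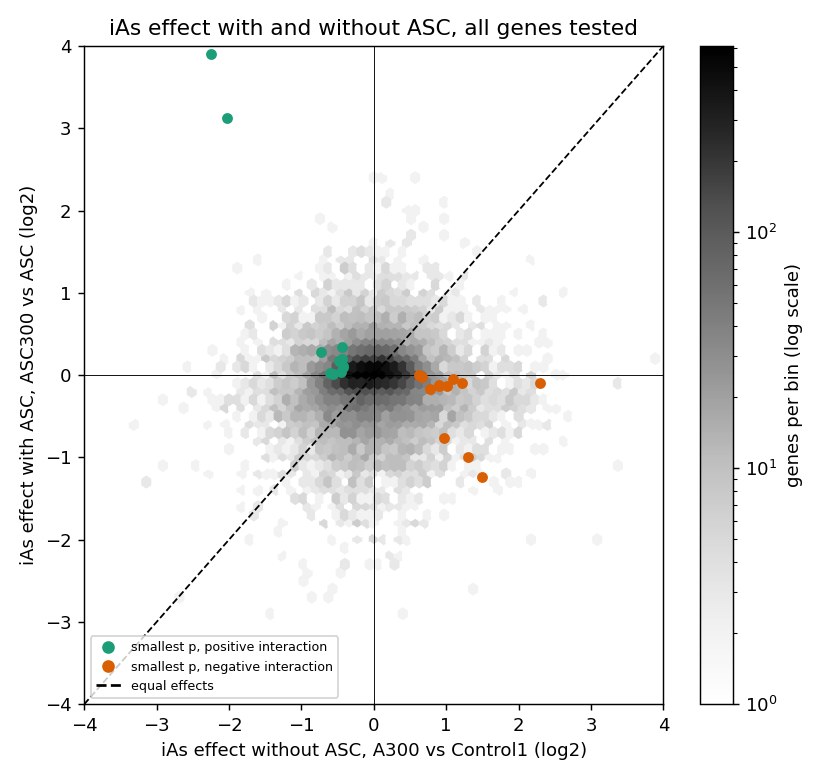
The iAs effect without ASC (horizontal, A300 against Control1) and with ASC (vertical, ASC300 against ASC), both as log2 values, for the genes tested. Shading gives genes per bin on a log scale, 212 genes lie outside the axes, among them Gm49339, and the colored points are the named genes with the smallest p-values, which lie near 0 vertically except for a few and away from the dashed line of equal effects.

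Genes are named by a rule, which took the 12 with the smallest unadjusted p-value in each direction among genes with a symbol and a mean of at least 1 CPM in 1 group. All 24 had an adjusted p-value of 0.309 by edgeR, so none passed, and their values are a description. By the same unadjusted ranking, 8 of the 12 positive and all 12 negative ones were called by DESeq2. The negative genes were Tpgs1, Cebpb, Enho, Mbp, Tgfb1, Higd1a, Shank1, Gnal, Ppp1r14b, Kcna2, Mrps24 and Atp5e. The positive ones included Gm14308, Phf6, Gm49339, Gm21982, Mbnl1, Ccne2, Crot, Man1a2, Psme4, Pcmtd2 and Med14.

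Both sets differed in base composition, which is shown here because the interaction moved with it across all genes. The negative genes had a median transcript GC content of 53.8% and the positive ones 41.8%, against 49.1% over all genes tested. The first 150 bases of the coding sequence, 5′ to 3′, of 2 negative genes and 1 positive gene among those with the smallest p-values are printed with G and C in capitals. They come from the longest coding transcript in GENCODE M21 (GRCm38). Tpgs1 lies on the plus strand of chr10:79669369-79676127 and Cebpb on the plus strand of chr2:167688915-167690418. Mbnl1 lies on the plus strand of chr3:60472830-60629750.
Tpgs1: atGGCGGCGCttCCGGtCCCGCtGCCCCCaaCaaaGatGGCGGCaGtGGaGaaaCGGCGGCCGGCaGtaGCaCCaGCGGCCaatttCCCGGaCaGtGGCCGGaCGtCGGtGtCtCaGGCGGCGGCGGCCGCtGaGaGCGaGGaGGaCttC
Cebpb: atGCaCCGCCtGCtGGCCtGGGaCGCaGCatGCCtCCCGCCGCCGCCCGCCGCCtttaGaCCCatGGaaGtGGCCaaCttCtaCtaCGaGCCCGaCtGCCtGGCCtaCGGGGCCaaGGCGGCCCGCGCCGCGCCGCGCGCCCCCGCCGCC
Mbnl1: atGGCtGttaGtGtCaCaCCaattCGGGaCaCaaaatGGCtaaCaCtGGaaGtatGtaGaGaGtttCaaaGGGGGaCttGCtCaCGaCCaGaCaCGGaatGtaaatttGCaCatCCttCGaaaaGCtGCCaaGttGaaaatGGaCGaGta
Of these bases, 69.3% in Tpgs1 and 75.3% in Cebpb were G or C, against 44.7% in Mbnl1.

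Among the negative genes, Tpgs1 (ENSMUSG00000020308), a subunit of the complex that adds glutamate chains to tubulin, had the smallest p-value. Its level was 11.7, 11.7 and 11.5 CPM in Control1 and 20.8, 24 and 25.4 CPM in A300. In ASC it was 17.9, 17.4 and 21.1 CPM and in ASC300 15.9, 17.2 and 18.3 CPM. The A300 and Control1 tumors did not overlap, whereas ASC300 and ASC did. The means of both ASC groups lay between those of A300 and Control1, though ASC replicate 3 (21.1 CPM) exceeded A300 replicate 1 (20.8 CPM). The interaction was -1.14 (SE 0.17, 95% interval -1.51 to -0.77, unadjusted p = 1.938e-05), from an iAs effect of 1.00 without ASC and -0.13 with ASC.

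Cebpb (ENSMUSG00000056501) encodes a transcription factor of adipocyte differentiation and inflammatory gene expression. It measured 17.4, 14.1 and 14.3 CPM in Control1, 35.9, 27.8 and 33.6 CPM in A300, 21.6, 28.9 and 29.0 CPM in ASC and 28.7, 23.5 and 24.8 CPM in ASC300. The iAs effect was 1.09 without ASC and -0.04 with ASC, and the interaction was -1.13 (SE 0.21, 95% interval -1.59 to -0.67). After correction for transcript GC content the interaction of Cebpb was -0.60, and that of Tpgs1 -0.67.

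Tgfb1 (ENSMUSG00000002603), the gene of the immunosuppressive cytokine TGF-beta 1, was also 1 of the genes measured by RT-qPCR. Its level was 81.2, 73.8 and 84.1 CPM in Control1 and 119, 132 and 118 CPM in A300. In ASC it was 88.1, 104 and 104 CPM and in ASC300 97.4, 99.8 and 99.3 CPM. The interaction of Tgfb1 was -0.62 (SE 0.12, 95% interval -0.88 to -0.36), and -0.55 after GC correction. All 3 A300 tumors exceeded all other tumors, and ASC300 lay inside the range of ASC.

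Higd1a, a hypoxia-induced protein of the inner mitochondrial membrane, measured 36.1, 33.0 and 29.9 CPM in Control1, 49.7, 48.6 and 58.8 CPM in A300, 44.6, 41.3 and 41.3 CPM in ASC and 42.1, 40.5 and 42.2 CPM in ASC300, with an interaction of -0.69. Mrps24, of the mitochondrial ribosome, and Atp5e, of the ATP synthase, had interactions of -1.01 and -1.03, with iAs effects of 0.90 in both without ASC and -0.12 and -0.13 with ASC. Ppp1r14b, an inhibitor of protein phosphatase 1, had an interaction of -0.94, which was -0.45 after GC correction.

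The other 5 negative genes are known from nerve tissue, though Enho is also active in the liver. Mbp, which encodes myelin basic protein, measured 13.5, 22.9 and 18.3 CPM in Control1, 50.7, 40.6 and 36.4 CPM in A300, 20.6, 23.5 and 21.4 CPM in ASC and 19.1, 19.6 and 22.4 CPM in ASC300, with an interaction of -1.32. Shank1, a scaffold of the postsynaptic density, measured 0.393, 0.537 and 0.304 CPM in Control1, 2.33, 2.08 and 1.71 CPM in A300, 1.15, 1.18 and 0.909 CPM in ASC and 1.14, 0.830 and 1.07 CPM in ASC300, with an interaction of -2.40. In both genes only A300 stood clear of the other groups above, and ASC300 overlapped ASC.

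Enho, Gnal and Kcna2 differed from the others, because the iAs effect with ASC went the opposite way with no overlap between tumors. Enho, which encodes the secreted peptide adropin, was 0.475, 0.825 and 0.629 CPM in Control1, 2.20, 1.90 and 1.36 CPM in A300, 0.769, 0.831 and 1.02 CPM in ASC and 0.372, 0.415 and 0.317 CPM in ASC300. Gnal, a G protein alpha subunit of olfactory and striatal neurons, was 2.96, 2.36 and 2.52 CPM in Control1, 5.15, 5.68 and 4.55 CPM in A300, 2.85, 4.29 and 4.03 CPM in ASC and 1.73, 2.23 and 2.61 CPM in ASC300. Kcna2, a voltage-gated potassium channel of axons, was 1.05, 0.691 and 0.911 CPM in Control1, 2.43, 2.58 and 1.57 CPM in A300, 0.951, 1.31 and 1.45 CPM in ASC and 0.577, 0.691 and 0.593 CPM in ASC300. In all 3 genes every A300 tumor was above every Control1 tumor and every ASC300 tumor below every ASC tumor. The interactions were -2.74 for Enho, -1.74 for Gnal and -2.29 for Kcna2.

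**Figure D2:**
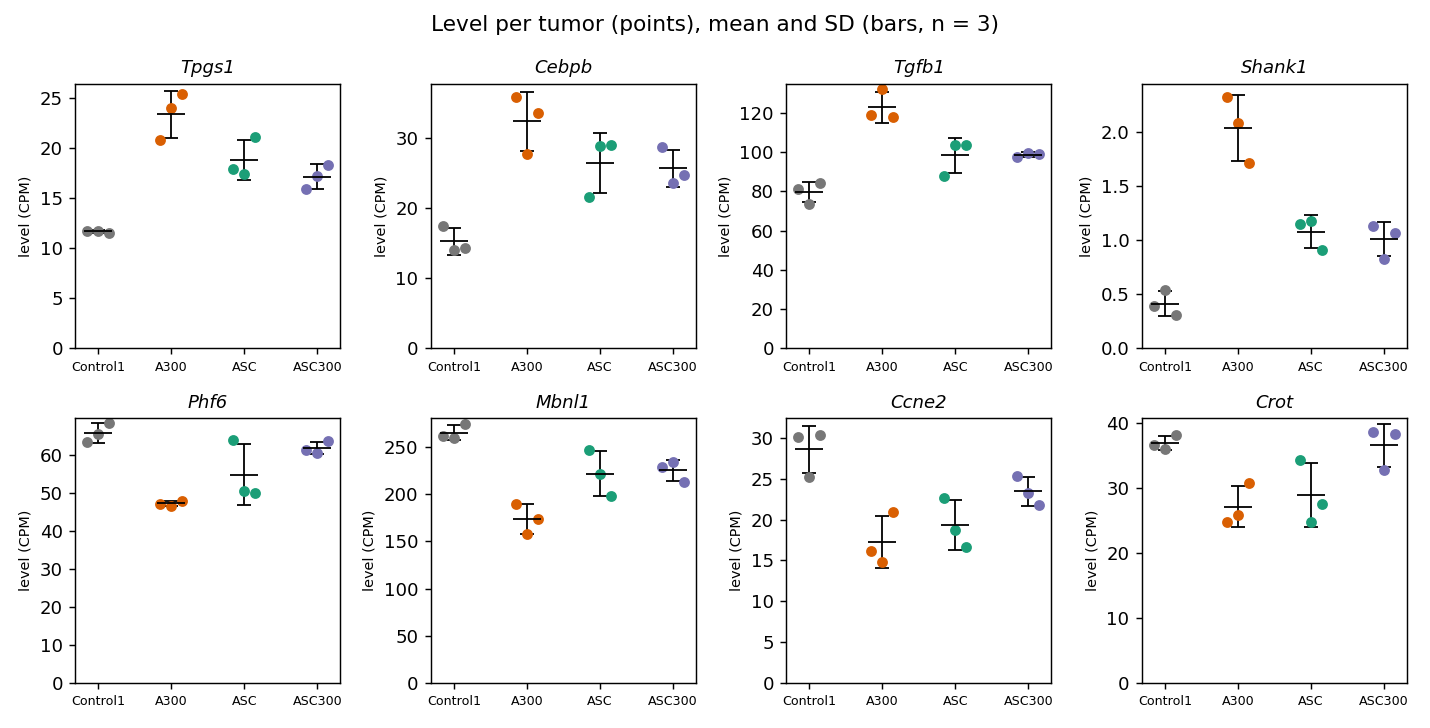
Level in CPM of 4 genes with a negative (top) and 4 with a positive (bottom) interaction, with 1 point per tumor and the mean and SD of 3 tumors per group. The A300 tumors stand above Control1 in the top row and below Control1 in the bottom row, while the ASC and ASC300 tumors overlap in all 8 genes.

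On the positive side, Phf6, an X-linked chromatin reader, measured 63.3, 65.5 and 68.5 CPM in Control1, 47.1, 46.6 and 48.0 CPM in A300, 64.0, 50.5 and 49.9 CPM in ASC and 61.4, 60.5 and 63.5 CPM in ASC300. Its interaction was 0.65 (SE 0.13, 95% interval 0.37 to 0.94), and 0.37 after GC correction. Mbnl1, a regulator of alternative splicing, was 262, 260 and 275 CPM in Control1, 190, 158 and 174 CPM in A300, 246, 221 and 198 CPM in ASC and 229, 234 and 212 CPM in ASC300. Its interaction was 0.63 (SE 0.13, 95% interval 0.35 to 0.91), and 0.37 after GC correction. In both genes every A300 tumor was below every Control1 tumor, and the tumors with ASC overlapped between iAs levels.

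Ccne2, the gene of cyclin E2, which drives entry into S phase, was 30.2, 25.2 and 30.4 CPM in Control1, 16.1, 14.8 and 20.9 CPM in A300, 22.7, 18.8 and 16.6 CPM in ASC and 25.4, 23.3 and 21.7 CPM in ASC300. Its interaction was 1.00 (SE 0.22, 95% interval 0.53 to 1.48), and 0.68 after GC correction. Crot, which transfers acyl groups to carnitine in peroxisomes, was 36.6, 36.0 and 38.1 CPM in Control1, 24.8, 25.8 and 30.7 CPM in A300, 34.3, 24.7 and 27.5 CPM in ASC and 38.6, 32.7 and 38.3 CPM in ASC300. Its interaction was 0.78, and 0.63 after GC correction. For Man1a2, Psme4, Pcmtd2 and Med14, which act in glycan trimming, proteasome activation, protein repair and the Mediator complex, the interaction lay between 0.50 in Psme4 and 0.64 in Pcmtd2. After GC correction it lay between 0.33 in Psme4 and 0.39 in Pcmtd2. In these 4 genes too, A300 was below Control1 without overlap and ASC300 overlapped ASC.

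The gene models Gm14308, Gm49339 and Gm21982, which have no assigned name, had large interactions at low levels. Gm14308 was 1.03, 2.34 and 3.67 CPM in Control1, 0.701, 0.327 and 0.689 CPM in A300, 0.142, 0.241 and 0.583 CPM in ASC and 5.16, 0.691 and 2.59 CPM in ASC300. Its interaction of 5.16 came from lower values with iAs in the absence of ASC and higher values in their presence, with no overlap in either. ASC replicates 1 and 2 had only 7 and 9 counts of Gm14308, under a floor of 12 counts. With that floor in every library the interaction of Gm14308 was 4.49. On its strand, the gene span of Gm21982 overlaps those of Rbm42 and Haus5, and that of Gm49339 overlaps Lilr4b and Lilrb4a. Whether they share exons was not examined, so their counts may not be separable from those of the neighbors. By DESeq2 the interaction of Rbm42 was -1.285, opposite in sign to that of Gm21982. Gm49339 had at most 1 count in A300, where the fitted value is no bound. In ASC its counts were 248, 321 and 0. Set to a floor of 12 counts per library, its interaction was 6.65. The interaction of Gm21982 was 6.16, and 3.81 without Control1 replicate 3. Gm14308 belongs to a cluster of similar zinc-finger genes. Mrps24, Gnal, Shank1, Mbnl1, Man1a2 and Crot also overlap other gene models on their strand, and Cebpb, Enho and Ccne2 are among those with a model on the opposite strand, so their counts are uncertain to that extent.

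Of the 12 positive genes 8, and of the 12 negative ones 9, had the means of both ASC groups between those of A300 and Control1. Over all genes with an unadjusted p-value under 0.05 this held for 68.4% of the positive and 69.3% of the negative ones, against 32.1% of all genes tested. In these genes the iAs effect without ASC was the larger one in 91%, with a median size of 0.46 log2 units against 0.10 with ASC. The genes were chosen by a contrast that contains both effects, so these shares describe them and are no test.

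The interaction moved with the base composition and length of transcripts. Genes were placed in 5 groups of equal number by the GC content of the longest transcript, with medians from 40.8% to 57.5%. The median interaction was 0.25, 0.13, 0.03, -0.08 and -0.23 from the lowest to the highest group. In the lowest group 686 genes were positive and 67 negative at an unadjusted p-value under 0.05, and in the highest 28 were positive and 623 negative. The gradient lay in the iAs effect without ASC, which ran from -0.27 to 0.24, whereas with ASC it ran from -0.03 to 0.02. By transcript length, the median interaction rose from -0.24 in the shortest group (median 792 bases) to 0.19 in the longest (6198 bases).

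For single tumors, the log2 CPM of each gene was taken as a deviation from its mean over all tumors, so signs are relative to the other tumors. The median deviation of GC-rich genes minus that of GC-poor genes was negative in all 3 Control1 tumors, at -0.29, -0.23 and -0.38. It was 0.06, 0.39 and 0.18 in A300, -0.16, -0.01 and 0.19 in ASC and -0.02, 0.10 and 0.05 in ASC300. Control1 thus did not overlap any other group. A correction of each tumor for GC content left a median interaction between -0.01 and 0.01 in every GC group, 903 positive and 1071 negative genes at an unadjusted p-value under 0.05, and 0 calls. The gradient by length remained after that correction, from -0.22 in the shortest to 0.14 in the longest genes. Whether the gradient arose in the tumors or in RNA and library handling was not tested.

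**Figure D3:**
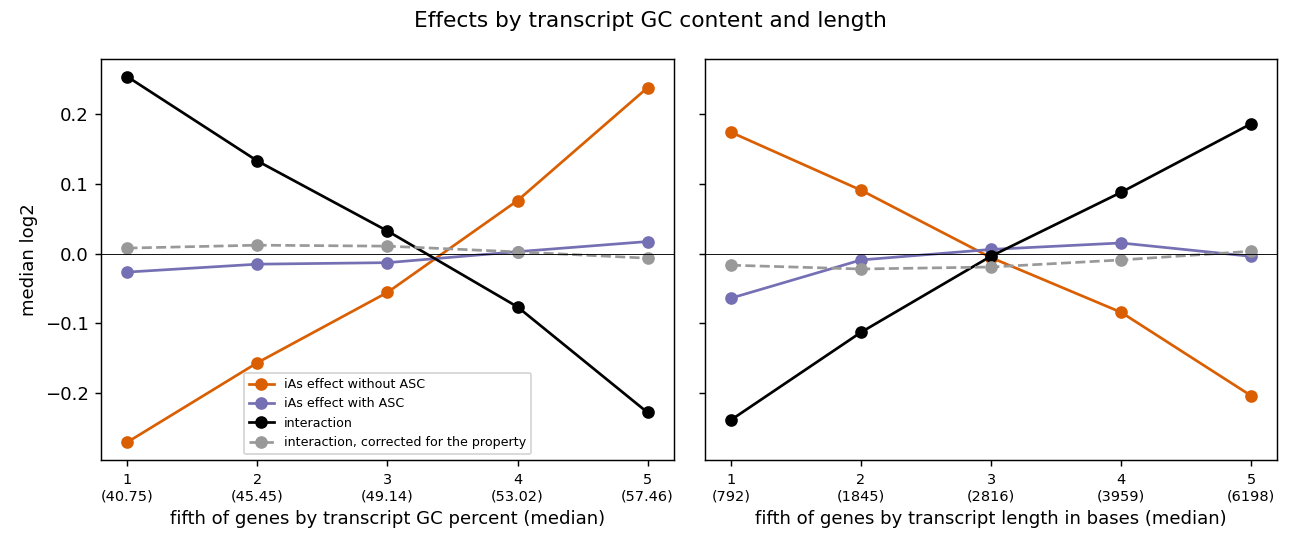
Median log2 value of the 2 iAs effects and of the interaction in 5 equal groups of genes by transcript GC content (left) and length (right), with the median property in parentheses. The interaction falls with GC content and rises with length, the iAs effect without ASC mirrors it, the effect with ASC stays near 0, and the dashed line after correction for the property is flat.

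Gene lists were described by counts and medians beside the median of all genes tested, which was 0.01. No member of any of the 23 lists was called by edgeR. The neuronal and synaptic list, with vesicle proteins, neurofilaments and receptors of synapses, had 25 of 28 members negative, of which 10 had an unadjusted p-value under 0.05 against 6.55% of all genes in that direction. Its median interaction was -1.64, from an iAs effect of 1.34 without ASC and -0.10 with ASC. Synaptophysin (Syp), a protein of synaptic vesicles, was 2.96, 4.36 and 4.62 CPM in Control1, 12.1, 10.7 and 12.7 CPM in A300, 3.5, 6.81 and 6.48 CPM in ASC and 5.75, 6 and 4.83 CPM in ASC300, with an interaction of -1.59. Syn2, another vesicle protein, had an interaction of -2.51.

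All 15 tested members of the myelin and astrocyte list were negative, 6 of them at an unadjusted p-value under 0.05, with a median of -1.41. Slc1a2, the glutamate transporter of astrocytes, was 1.12, 4.87 and 5.77 CPM in Control1, 18.5, 18.1 and 9.11 CPM in A300, 4.94, 8.25 and 5.48 CPM in ASC and 5.66, 7.13 and 4.71 CPM in ASC300. Its interaction was -2.05. Gfap, the intermediate filament of astrocytes, had 0 counts in Control1 replicate 1 and an interaction of -3.21. DESeq2 called 6 members of the neuronal list (Syp, Syt1, Syn2, Stmn2, Kcnip3 and Shank1) and Mbp and Slc1a2 of the myelin list. In that direction it called 0.429% of the 33784 genes tested, a share lowered by the 17193 without an adjusted p-value.

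The sign of both nerve tissue medians held when any 1 tumor was left out, with ranges of -1.87 to -1.17 and -1.68 to -1.18, and GC correction gave -1.70 and -1.44. Among members with at least 10 counts in every tumor the neuronal median was -0.82. The summed level of the neuronal list was 345 to 389 CPM in Control1, 480 to 560 CPM in A300, 413 to 490 CPM in ASC and 445 to 518 CPM in ASC300. For the myelin list it was 144 to 196, 208 to 280, 196 to 201 and 183 to 195 CPM. In whole tumors, fewer cells of a type and less RNA per cell cannot be told apart.

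Lymphocyte lists had positive medians that rested on 1 tumor. All 15 B cell markers were positive, 5 at an unadjusted p-value under 0.05 against 7.08% of all genes, with a median interaction of 2.95. Without Control1 replicate 1 the median was -0.26. Ms4a1, which encodes CD20, was 28.0 CPM in that tumor, 0.441 and 0.889 CPM in the other Control1 tumors and at most 1.5 CPM elsewhere. Plasma cell and immunoglobulin genes had a median of 2.96, which was -0.09 without that tumor. T cell genes, 18 of 20 of them positive, went from 1.1 to -0.16.

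Cd8a, of the CD8 coreceptor, went from 2.18 to 0.46 without Control1 replicate 1.

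**Figure D4:**
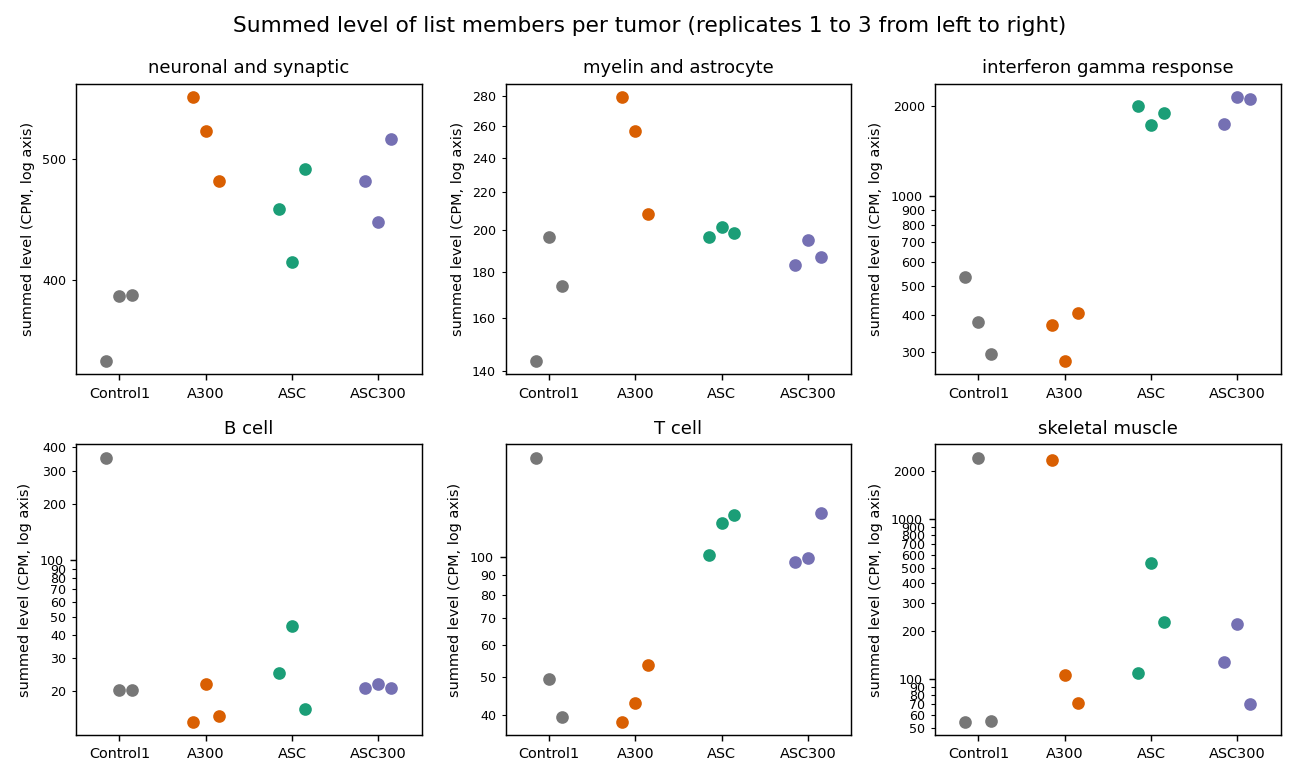
Summed level in CPM (log axis) of the members of 6 lists, with 1 point per tumor and replicates 1 to 3 from left to right in each group. A300 exceeds Control1 in the neuronal and myelin lists, Control1 replicate 1 stands alone in the B cell list at 352 CPM, A300 replicate 1 and Control1 replicate 2 carry the muscle list, and the interferon gamma list separates the groups with ASC from those without but not by iAs.

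Cytotoxic and NK cell genes had a median interaction of 0.48, and 0.29 without Control1 replicate 1. Klrc1, the NKG2A receptor gene, was 1.20, 0.844 and 1.19 CPM in Control1, 1.15, 0.409 and 0.441 CPM in A300, 4.47, 3.19 and 4.24 CPM in ASC and 5.45, 4.60 and 6.79 CPM in ASC300. Its interaction was 1.21 (95% interval 0.07 to 2.34), with ASC300 above ASC in every tumor and overlap between A300 and Control1. Interferon gamma response genes were 16 of 20 positive with a median of 0.32, which fell to -0.01 without Control1 replicate 1. Their summed level was 1722 to 2145 CPM in the tumors with ASC and 280 to 533 CPM in those without.

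Within that list, Ido1, which degrades tryptophan, was 0.289, 0.269 and 0.282 CPM in Control1, 0, 0.184 and 0.106 CPM in A300, 3.20, 2.41 and 1.24 CPM in ASC and 5.08, 3.67 and 5.42 CPM in ASC300. Its interaction was 2.51, and 1.3 with A300, which was under the floor, set to 12 counts per library. Socs1, a feedback inhibitor of interferon signaling, went the other way with -0.72, and -0.47 after GC correction. MHC class II genes had a median of 0.49, and -0.37 without Control1 replicate 1. Cd274, the gene of PD-L1, was 14.5, 12 and 8.72 CPM in Control1, 9.53, 5.72 and 9.75 CPM in A300, 31.4, 31.2 and 27.0 CPM in ASC and 35.1, 35.0 and 33.1 CPM in ASC300. Its interaction was 0.70 (95% interval 0.07 to 1.33), and 0.50 without Control1 replicate 1.

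The other genes singled out by RT-qPCR or by name in the study had intervals that included zero. The interaction was 0.16 for Irf1, with a 95% interval of -0.21 to 0.54, and 0.08 for Il1b, with -0.87 to 1.02. It was -0.38 for Nos2 (-1.83 to 1.08), 0.18 for Arg1 (-0.63 to 1.00) and -0.45 for Ifng (-2.77 to 1.86). Of these 5, all but Irf1 had intervals that reached past 1.5-fold in both directions. With Control1 set to the floor of 12 counts per library, Ifng was at -0.10. The checkpoint receptors Pdcd1 and Lag3, the chemokine receptor Cxcr6 and the chemokine Ccl3 lay between -0.17 and 0.04. Fgf12, an intracellular partner of sodium channels, was at -2.44 with an interval of -4.97 to 0.08.

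Macrophage genes were 13 of 15 negative, 6 at an unadjusted p-value under 0.05 against 6.55% of all genes, with a median of -0.14. The macrophage median was -0.51 without Control1 replicate 2 and -0.02 without ASC replicate 2. C1qa, of complement component C1q, was 183, 190 and 159 CPM in Control1, 247, 249 and 243 CPM in A300, 285, 366 and 284 CPM in ASC and 275, 314 and 312 CPM in ASC300. Its interaction was -0.53, and -0.26 after GC correction. Cd68 and Cd14 were at -0.62 and -0.47. Neutrophil genes had a median of -0.14, fibroblast genes 0.07 and endothelial genes -0.24, with 11 of 14 endothelial genes negative and Esam at -0.52 and Plvap at -0.57. With 1 tumor left out, the neutrophil median reached 0.25 (without A300 replicate 1), the fibroblast median -0.11 (without ASC300 replicate 2) and the endothelial median -0.09 (without A300 replicate 1). Plvap was at -0.27 after GC correction.

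The oxidative stress and arsenic handling list was balanced, with 8 of 16 members in each direction and a median of 0.03. G6pdx, which supplies NADPH, was 140, 140 and 156 CPM in Control1, 128, 138 and 131 CPM in A300, 152, 130 and 156 CPM in ASC and 171, 167 and 175 CPM in ASC300, with an interaction of 0.37. Gclc, of glutathione synthesis, was at 0.43. Mt3, a metallothionein of nerve tissue, was 0.475, 0.576 and 0.239 CPM in Control1, 2.20, 1.31 and 1.98 CPM in A300, 0.85, 1.5 and 0.792 CPM in ASC and 1.28, 0.434 and 1.17 CPM in ASC300, with an interaction of -2.20.

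Heat shock genes were 9 of 11 negative with a median of -0.22, among them Hspe1 at -0.64, Dnajb1 at -0.50 and Hspb1 at -2.22, which was -1.41 without ASC replicate 3. Immediate early genes were 10 of 15 negative with a median of -0.13. Junb, an AP-1 subunit, went from -0.41 to -0.04 after GC correction, and Ier3, which responds to stress, from -0.40 to -0.29. Cell cycle genes had a median of -0.01, with Top2a at 0.40, Bub1 at 0.33 and Mcm5 at -0.34. After GC correction Top2a was at 0.22 and Bub1 at 0.08.

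Hypoxia and glycolysis genes were 10 of 15 positive with a median of 0.19. Egln3, an oxygen-sensing hydroxylase, was 156, 148 and 158 CPM in Control1, 153, 130 and 153 CPM in A300, 117, 95.3 and 114 CPM in ASC and 154, 128 and 142 CPM in ASC300. Here the iAs effect lay in the tumors with ASC, where the groups did not overlap, and the interaction was 0.47. Sterol synthesis genes had a median of 0.10, with Hmgcs1 at 0.33, and 0.13 after GC correction. Mitochondrially encoded genes were 11 of 13 positive with a median of 0.12, which was -0.20 after GC correction and 0.35 after length correction.

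Skeletal muscle, adipocyte and keratin lists followed single tumors. The muscle median of -1.75 became 3.19 without A300 replicate 1 and -8.49 without Control1 replicate 2. The adipocyte median of -0.34 became 1.92 without ASC replicate 2. The keratin and epithelial median of 0.48 became 0.06 without Control1 replicate 1, where Krt18 was 19.7 CPM against 0.279 to 1.40 CPM in the other tumors.

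**Figure D5:**
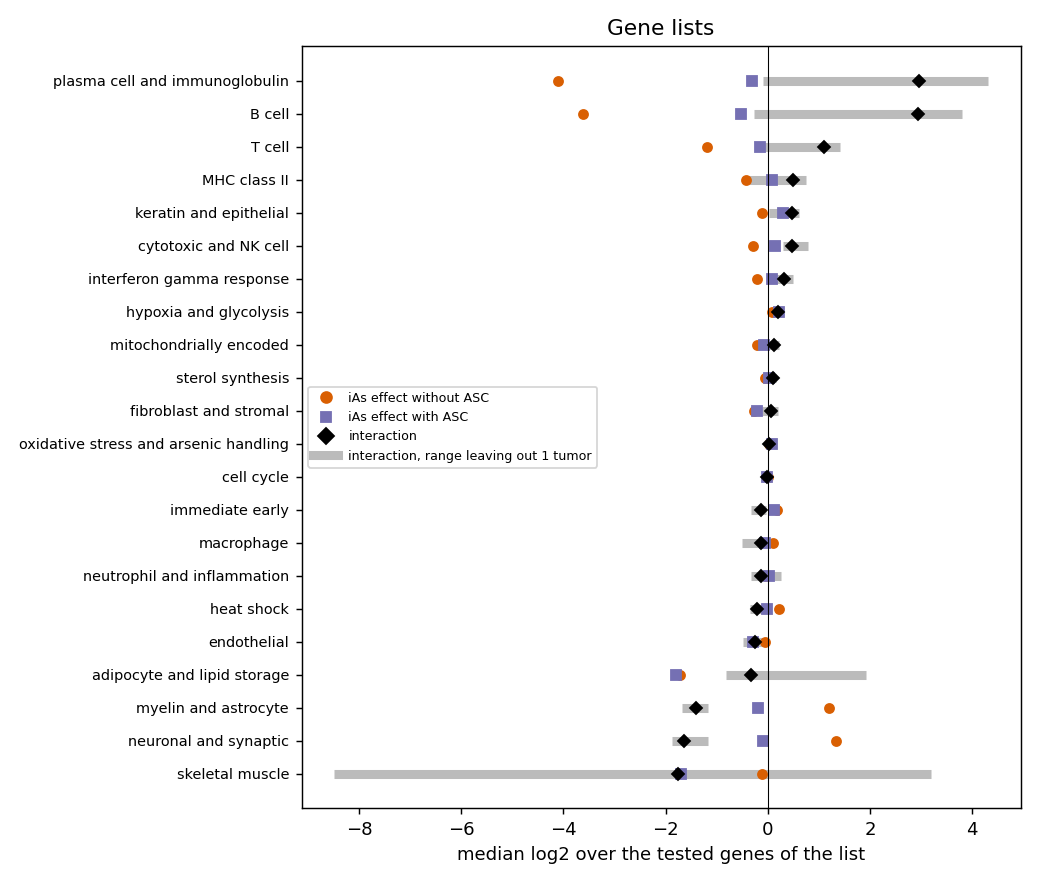
Median log2 value over the tested members of 22 lists for the iAs effect without ASC (circles), with ASC (squares) and the interaction (diamonds), with gray bars for the range of the interaction median when 1 tumor is left out. The neuronal and myelin medians stay below 0 under each left-out tumor, while the bars of many other lists cross 0, most widely those of the muscle, plasma cell, B cell, adipocyte and T cell lists.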

How the data were processed

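RNA was measured in 12 tumors, 3 per group, grouped by the sample labels. The deposited values are whole-number counts per Ensembl gene. Per the methods, the authors used Cutadapt for trimming, HISAT2 for alignment and StringTie with Ballgown for quantification. The submitters' processing notes give cutadapt 1.1.0, HISAT2 2.0 and StringTie 1.3.4. The genome build, the annotation and the step that made counts are not given in the sources used here. Libraries were stranded, and whether the counting used strand is not given. Among low values, multiples of 4 were over-represented, so a floor of 12 counts was used as if for 3 read pairs.

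Symbols came from GENCODE M21 for 55141 genes, and 260 had none. In R 4.3.3 genes were filtered with filterByExpr by group, normalized by TMM (factors 0.954 to 1.05) and fitted with 1 mean per group in edgeR 4.0.16. Genes were tested across the genome with the quasi-likelihood F test, and p-values were adjusted by Benjamini-Hochberg over the 20818 genes. A call needed an adjusted p-value under 0.05 and 1.5-fold. Alternatives used DESeq2 1.42.0, limma 3.58.1, other filters and scalings, a replicate block, lowess correction (span 0.3) for transcript GC content and length, and leaving out each tumor. The length correction was added after seeing the data. The test was checked on simulated data.

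Named genes were the 12 per direction with the smallest p-value where calls were fewer, up to 3 per list, and genes the study measured by RT-qPCR or named. The interaction, these genes and the 23 lists were chosen with earlier results of these data known. Some named genes are not reported here. P-values measure the spread between tumors of separate mice.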

Additional observations from a re-analysis of the deposited data

Results flagged for a closer look

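In some genes named by the rule and reported here, the groups did not overlap in either iAs comparison. Their direction was opposite with and without ASC. How common this pattern was among all genes tested was not counted, so it does not set these genes apart. The interaction was 5.16 for Gm14308 (4.49 with the floor of 12 counts per library), lower in A300 than in Control1 and higher in ASC300 than in ASC. The same directions were seen for Ido1 (2.51, with A300 at or under the floor of 12 counts per library), S100a9 (1.18, a neutrophil gene at about 1 CPM) and G6pdx (0.37). It was -2.74 for Enho, -1.74 for Gnal and -2.29 for Kcna2, each higher in A300 than in Control1 and lower in ASC300 than in ASC. The difference itself was tested by edgeR, and the adjusted p-values were 0.309 to 0.352, so none passed. Gm14308, Enho, Gnal and Kcna2 were also among those chosen for the smallest p-values of this contrast.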

How the results depend on the processing

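The 0 interaction calls remained 0 in both directions with voom weights, other size factors, other filters, counts divided by 4, a table summed by symbol and both corrections. DESeq2 gave 29 positive and 145 negative calls, with median transcript GC of 43.8% and 54.7%. An unadjusted p-value under 0.05 with 1.5-fold gave 438 and 773. With 1 tumor left out the calls ranged from 0 to 1 in each direction, namely Mtf2 without A300 replicate 3 (adjusted p-value 0.0330 by edgeR), Shroom4 without ASC replicate 3 (0.00622) and Kantr without ASC300 replicate 3 (0.00706). At an unadjusted p-value under 0.05, other size factors gave 1165 positive and 1576 negative genes.

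Replicate numbers did not pair the tumors: the 18 same-number pairs had a median correlation of 0.03 in their deviations from the group means (-0.12 to 0.17), 2 of them over 0.1. With the replicate block the interaction calls were 0 and 0, and the iAs effect without ASC had 195 calls. With block and GC correction it had 0.

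For the iAs effect without ASC, calls numbered 220 in the chosen test and became 816 with DESeq2 and 490 with voom weights. They were 593 with no minimum fold, 1514 at an unadjusted p-value with 1.5-fold and 8 with no filter. At least 10 counts in every tumor gave 454 calls, counts divided by 4 gave 460, GC correction 0 and length correction 22. With 1 tumor left out the calls ranged from 0 to 399. They were 0 without any 1 of the Control1 tumors, without ASC300 replicate 1 and without ASC300 replicate 3. The other fits gave from 1 call without A300 replicate 2 to 399 without ASC replicate 3. The 0 calls for iAs with ASC became 11 with DESeq2, 428 at an unadjusted p-value with 1.5-fold, and 0 to 1 with 1 tumor left out. The causes were not tested, apart from the fewer or more genes entering each test.

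Some named genes changed sign. H2-Oa went from 2.99 to -0.98 with voom. Others were closer to 0: Acaca changed to -0.0780 with length correction, Il1b to -0.0145 with GC correction, and Ifng to 0.67 with voom. Lag3 became 0.11 with GC correction and 0.18 with block and GC correction. The interaction log2 of Ccl3 became 0.26 with voom, 0.0947 with the block and 0.11 with length correction. The interaction log2 of Pdcd1 became 0.0673 with the block, 0.0119 with GC correction and 0.17 with both. The interaction log2 of Cxcr6 became -0.0817 with voom, -0.00728 with 10 counts in every tumor, -0.16 with GC correction and -0.14 with block and GC correction. With 1 tumor left out, the interaction ranged from -0.74 to 3.19 for H2-Ob, -0.86 to 3.54 for H2-Oa, -8.49 to 2.89 for Actn3, -7.43 to 2.32 for Tnni2, -10.1 to 3.31 for Ckm, -0.52 to 0.40 for Lag3, -0.79 to 0.39 for Nos2, -0.0507 to 0.47 for Arg1, -0.44 to 0.51 for Ccl3, -1.04 to 0.21 for Ifng, -0.18 to 0.34 for Il1b, -0.00046 to 0.24 for Irf1, -0.53 to 0.44 for Pdcd1 and -0.26 to 0.38 for Cxcr6. The 24 named genes with the smallest p-values kept their sign under every alternative that gave a value. They were chosen by this same contrast in these same tumors, so their kept sign is no test of stability. With 3 tumors per group, low-level genes could not be resolved.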
